A study of Mus musculus with 12 samples.

Results

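Cholesterol and fatty acid synthesis genes were followed in mouse lungs grown as explants, as 31 of the 24421 gene symbols in the count table. They were chosen by symbol. The set holds 7 enzymes of the mevalonate arm, which turns acetyl-CoA into farnesyl diphosphate, 11 enzymes that lead from there through squalene to cholesterol, and 4 regulators or carriers of sterols. It also holds 6 enzymes of fatty acid synthesis, elongation and desaturation, and the 3 genes of the fatty acid desaturase (Fads) cluster. All 31 passed the filter on low counts, which left 15246 genes to test. Whole lungs of wild-type CD-1 mice were isolated at embryonic day 12.5 and kept in Matrigel on inserts at an air-liquid interface. At Day 0, the day after isolation, a 20% solution of PEG-HCC was added, which a two-photon laser can crosslink into a stiff gel. The 3 groups of 4 libraries each were lungs at Day 0, lungs at Day 2 in the uncrosslinked solution (control) and lungs at Day 2 inside crosslinked polymer that restricted their growth (compression). Whether Day 0 lungs had met the solution is not stated in the labels, so 2 days of culture and exposure to the solution cannot be told apart, and neither can restriction and crosslinking. No cell type was selected, and in such bulk samples fewer cells of a type and less RNA per cell cannot be told apart. The labels do not say that libraries came from separate animals, so p-values measure the spread between these samples.

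Cells make cholesterol from acetyl-CoA in a long chain of reactions in the cytosol and the endoplasmic reticulum, and fatty acids from the same precursor. Both routes are driven by the SREBP transcription factors, encoded by Srebf1 and Srebf2, which Insig proteins hold in the endoplasmic reticulum while sterols are plentiful. When sterols run low, the factors are cut free, enter the nucleus and act on promoters together with NF-Y and Sp1. In the fetal lung, fatty acids from this route feed the phospholipids of surfactant, the film made by alveolar type 2 cells.

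Promoters of these genes were read from RefSeq (GRCm38.p6), whose table held windows from 250 bases before to 50 bases after the start of transcription for 24 of the 31 genes (29 windows). The segments printed here lie upstream of the start and are shown because they carry the letters that these factors are known to read. Capitals mark CCAAT or its reverse complement ATTGG, the letters read by NF-Y, and in Hmgcs1 also TCACCCCAC, a match to the sterol regulatory element searched as TCACNCCAC. The segments are from Hmgcs1 (chr13:119690101-119690325, plus strand), Lss (chr10:76531528-76531562, plus strand), Sc5d (chr9:42264305-42264339, minus strand) and Ebp (chrX:8193548-8193697, minus strand). Those of regulation and fatty acid genes are from Insig1 (chr5:28071181-28071215, plus strand), Fasn (chr11:120824587-120824652, minus strand) and Fads3 (chr19:10041427-10041489, plus strand).
Hmgcs1: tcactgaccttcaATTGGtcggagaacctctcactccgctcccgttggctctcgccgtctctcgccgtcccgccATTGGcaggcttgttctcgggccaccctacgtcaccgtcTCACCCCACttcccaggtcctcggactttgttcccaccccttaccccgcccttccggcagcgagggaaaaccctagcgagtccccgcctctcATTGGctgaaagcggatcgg
Lss: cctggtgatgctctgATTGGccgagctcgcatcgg
Sc5d: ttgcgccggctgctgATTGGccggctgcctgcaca
Ebp: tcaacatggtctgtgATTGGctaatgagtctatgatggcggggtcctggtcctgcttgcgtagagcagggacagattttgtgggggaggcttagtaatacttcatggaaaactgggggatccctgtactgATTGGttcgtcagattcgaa
Insig1: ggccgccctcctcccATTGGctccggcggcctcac
Fasn: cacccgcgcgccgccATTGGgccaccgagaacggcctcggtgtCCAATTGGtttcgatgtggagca
Fads3: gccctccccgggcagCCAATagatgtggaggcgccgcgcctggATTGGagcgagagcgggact
Each motif was searched on both strands. CCAAT was present in 21 of the 29 windows (72.4%), against 37.4% of 32851 windows of the same length over all genes, and GGGCGG, the letters of Sp1, in 22 (75.9%), against 35.7%. The sterol regulatory element letters were found in Hmgcs1 only (3.45% of windows, against 1.24%), and CACGTG, an E-box, in Sc5d, Hsd17b7, Dhcr7 and Insig1 (13.8%, against 7.15%). By role, all 9 sterol genes with a window had both CCAAT and GGGCGG. Of the 4 fatty acid genes with a window 2 had CCAAT, Fasn and Acly, the latter only after the start. The upstream part of the Acaca window (chr11:84195188-84195437) lies inside the annotated gene, which begins at 84129672. Sequence before that first base was not read. In Fasn the letters CCAATTGG count on both strands, so 2 of its 3 matches overlap. A match describes the sequence and does not show a bound site.

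Total counts ranged from 13979871 to 33249761 per library, and levels are given as CPM, read counts scaled to a common library size after TMM normalisation. Some libraries stood apart. Control replicate 4 contained liver transcripts, with 13 liver markers summing to 1717 CPM against 12.1 to 25.5 CPM in the other libraries. Compression replicates 2 and 3 varied little beyond counting noise (dispersion 8.78e-04, against 0.00543 to 0.0386 for the other pairs within groups) and were counted as 2 samples, as labelled. Their sample descriptions carry the same number with different letters, and whether they came from the same lung is not stated. Markers of lung mesenchyme (5710 to 7863 CPM summed over 9 genes) and lung epithelium (912 to 1631 CPM over 8 genes) were present in every library, as the tissue label states.

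Over 2 days of culture with unrestricted growth, most of the pathway rose. Of the 31 genes 23 were higher in controls than at Day 0 by edgeR's quasi-likelihood test with Benjamini-Hochberg adjustment, where 22.6% of all genes tested were, and 2 were lower (Acaca and Elovl6), where 17.6% of all genes were. The 6 that did not pass were Acat2, Mvk, Ebp, Srebf2, Acly and Fasn. The median log2 fold change was 0.35, against 0.02 over all genes. The largest rises were those of the desaturases Fads3 (3.17-fold) and Scd1 (2.61-fold). Controls and Day 0 did not overlap for 18 of the 31 genes in the higher direction, against 20.4% of all genes, and for Acaca in the lower direction, against 17.4%. Under compression 13 of the 31 genes were higher than at Day 0, where 26.6% of all genes were, and the same 2 were lower, where 22.5% of all genes were. Compression and Day 0 did not overlap for 13 genes in the higher direction, against 23.5% of all genes, and for Acaca and Elovl6 in the lower direction, against 19.5%. Here the median log2 fold change was 0.18, against 0.02 over all genes. Both comparisons use the same Day 0 libraries, so their values are set side by side and are not independent. The direct test between the Day 2 groups, given after them, called none of the 31 genes. Without the control library that held liver transcripts, 21 genes were higher in controls than at Day 0, where 19.6% of all genes were. Without control replicate 2, 18 were, where 19.9% of all genes were. With compression replicates 2 and 3 summed, 11 were higher under compression than at Day 0, where 22.4% of all genes were.

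**Figure D1:**
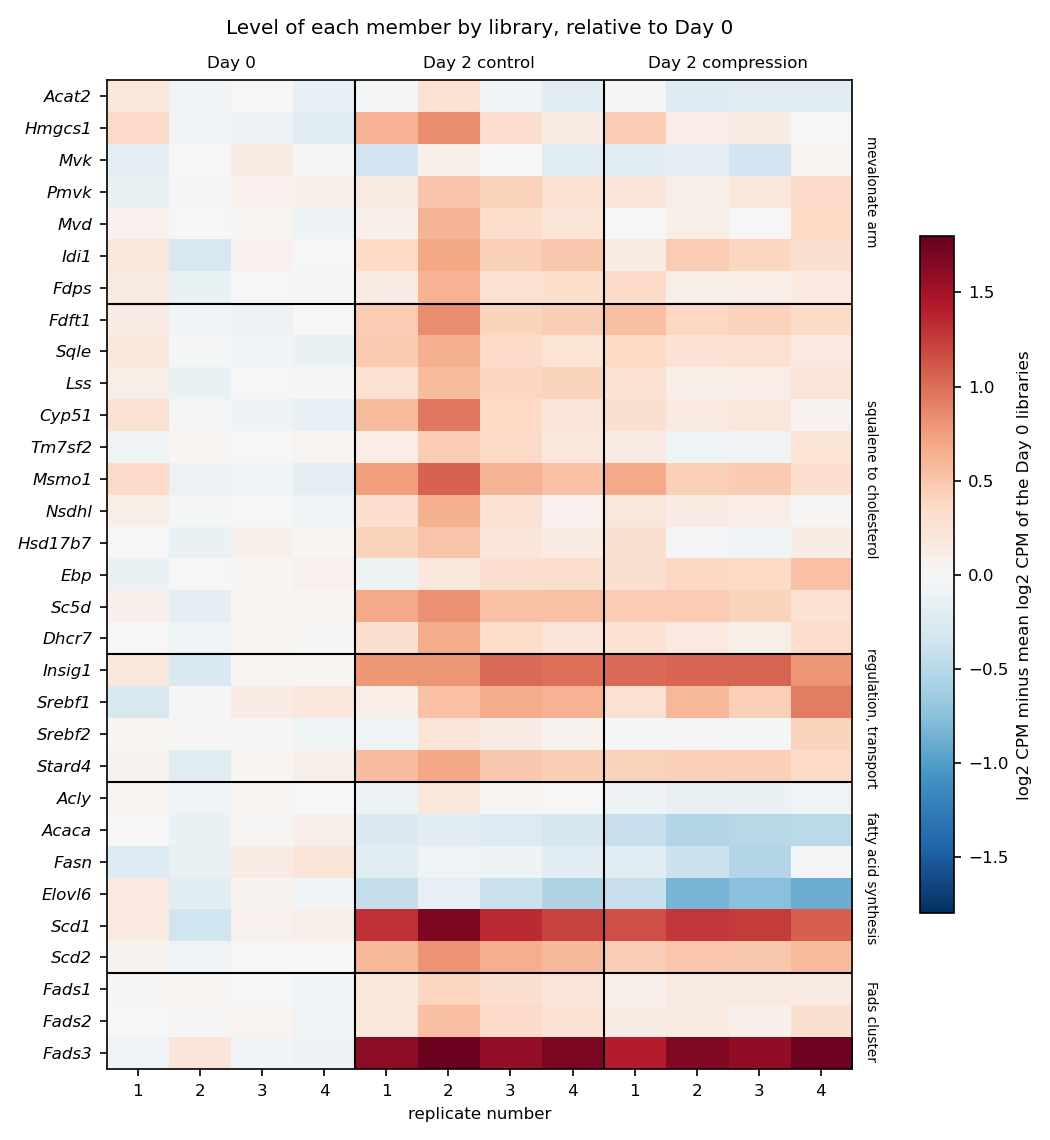
Level of each of the 31 genes in each library, as log2 CPM minus the gene's mean log2 CPM over the 4 Day 0 libraries (red higher, blue lower), with columns by group and replicate number and rows in pathway order. Fads3 and Scd1 are the darkest red rows at Day 2, Acaca and Elovl6 are blue, and control replicate 2 is the reddest control column for 28 of the 31 genes.

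In the mevalonate arm 5 of 7 genes rose in controls. Hmgcs1 makes HMG-CoA, the substrate of the rate-limiting step. Its levels in replicates 1 to 4 were 417, 315, 304 and 286 CPM at Day 0, 502, 585, 403 and 360.1 CPM in the controls, and 448, 355, 359 and 329 CPM under compression. Replicate 1 was the highest Day 0 library and reached into the range of the controls, of which replicate 2 was the highest. The rise in controls was 0.49 on the log2 scale (SE 0.16, adjusted p = 0.0246), and the value under compression was 0.17 (SE 0.16, adjusted p = 0.373). Idi1, which isomerises the first isoprenoid unit, rose in both groups. It stood at 28.5, 20.1, 26.1 and 24.7 CPM at Day 0, 31.8, 39.9, 33.2 and 34.9 CPM in the controls, and 27.2, 34.0, 32.1 and 30.2 CPM under compression. All controls lay above all Day 0 libraries, while compression replicate 1 fell within the Day 0 range. The log2 fold changes of Idi1 were 0.485 in controls (SE 0.11, adjusted p = 0.00266) and 0.31 under compression (SE 0.11, adjusted p = 0.0281). Pmvk and Mvd, the kinase and decarboxylase that follow mevalonate kinase, rose by 0.35 and 0.32 in controls, and the farnesyl diphosphate synthase gene Fdps rose by 0.35. Under compression these 3 genes had log2 fold changes of 0.21, 0.13 and 0.18 and did not pass (adjusted p = 0.0532, 0.351 and 0.126). The thiolase gene Acat2 averaged 159.8 ± 16.7 CPM at Day 0, 159 ± 23.3 CPM in the controls and 142 ± 9.30 CPM under compression. Mvk, mevalonate kinase, averaged 25.8 ± 2.13, 23.8 ± 3.24 and 23.0 ± 2.71 CPM in the same order (all SD, n = 4), and neither gene passed in either comparison.

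Several of these calls were lost when libraries were left out. The rise of Hmgcs1 in controls did not pass without Day 0 replicate 2, 3 or 4 or without control replicate 1 or 2 (adjusted p = 0.0605, 0.0672, 0.0700, 0.0671 and 0.0850), and that of Mvd was lost without any 1 of the 4 Day 0 libraries, control replicate 2 or 3, or compression replicate 2 (adjusted p from 0.0516 to 0.139). Idi1 under compression was lost without Day 0 replicate 2 or 4 or without compression replicate 2 or 3 (adjusted p = 0.0801, 0.0622, 0.101 and 0.0754), and Pmvk and Fdps lost their calls in controls when control replicates 2 and 4 were both left out (adjusted p = 0.0512 and 0.113). Under compression Pmvk passed as higher in 3 of 24 alternative settings and Fdps in 1.

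Of the 11 genes from squalene to cholesterol 10 rose in controls and 5 rose under compression. Msmo1, which removes methyl groups from the sterol ring, had the largest rise of the 18 mevalonate and sterol genes. It stood at 86.2, 62.7, 64.6 and 60.2 CPM at Day 0, 115, 142, 103 and 98.0 CPM in the controls, and 108, 91.1, 94.3 and 83.5 CPM under compression. The controls lay above all Day 0 libraries, while compression replicate 4 lay below Day 0 replicate 1. The rises were 1.67-fold in controls (log2 0.74, SE 0.13, adjusted p = 6.64e-04) and 1.38-fold under compression (log2 0.46, SE 0.13, adjusted p = 0.0111). Sc5d, the lathosterol oxidase whose promoter segment is printed above, stood at 41.8, 34.9, 40.5 and 40.3 CPM at Day 0. It reached 62.8, 69.3, 56.6 and 56.7 CPM in the controls and 54.2, 54.1, 52.6 and 47.6 CPM under compression. No Day 2 library of Sc5d overlapped Day 0, and no compression library overlapped the controls. Its log2 fold changes against Day 0 were 0.64 (SE 0.08, adjusted p = 4.36e-05) and 0.40 (SE 0.08, adjusted p = 0.00111). Fdft1, which joins farnesyl units into squalene, stood at 85.3, 73.9, 71.5 and 76.5 CPM at Day 0, 105, 137, 101 and 105 CPM in the controls and 112, 98.9, 102 and 97.3 CPM under compression. Both Day 2 groups of Fdft1 lay wholly above Day 0 (log2 0.54 and 0.42, SE 0.09 for both, adjusted p = 5.09e-04 and 0.00251). Sqle, the squalene epoxidase, averaged 128 ± 12.001 CPM at Day 0, 173 ± 21.1 CPM in the controls and 154 ± 8.28 CPM under compression (SD, n = 4), with log2 rises of 0.43 (adjusted p = 0.00146) and 0.26 (adjusted p = 0.0219). Its call under compression was lost without Day 0 replicate 3 or 4 or compression replicate 1 (adjusted p = 0.0649, 0.0751 and 0.0659).

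A further 6 sterol genes rose in controls and did not pass under compression. Lss closes squalene epoxide into lanosterol. It stood at 98.1, 83.6, 90.1 and 92.4 CPM at Day 0, 109.9, 135, 119 and 122 CPM in the controls, and 108, 96.7, 99.0 and 106 CPM under compression. The controls lay above every other library, and the compression libraries ran from within the Day 0 range to above it. The log2 fold changes of Lss were 0.41 in controls (SE 0.07, adjusted p = 4.66e-04) and 0.17 under compression (SE 0.07, adjusted p = 0.0620). Cyp51, the lanosterol demethylase, stood at 189.6, 154, 148 and 142 CPM at Day 0, 233, 303, 201 and 183 CPM in the controls, and 193, 177, 182 and 165 CPM under compression. Control replicate 2 was the highest library and control replicate 4 fell below Day 0 replicate 1. Its rise was 0.54 in controls (SE 0.14, adjusted p = 0.00657), and the value under compression was 0.18 (SE 0.14, adjusted p = 0.296). The remaining genes of this kind were the reductase genes Tm7sf2, Hsd17b7 and Dhcr7 and the sterol dehydrogenase gene Nsdhl, with rises in controls of 0.28, 0.33, 0.39 and 0.34 in that order. Under compression their log2 fold changes were 0.07, 0.08, 0.22 and 0.12 (adjusted p = 0.601, 0.514, 0.0561 and 0.330). The call of Tm7sf2 in controls (adjusted p = 0.0433) held in 4 of 24 alternative settings (adjusted p up to 0.300), and that of Hsd17b7 was lost without control replicate 2 (adjusted p = 0.0643). Under compression Dhcr7 passed as higher in 5 of the 24 settings (adjusted p = 0.0177 without control replicate 2), Lss in 2 and Cyp51 in 1.

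Ebp, the sterol isomerase, differed from these. It stood at 12.4, 13.5, 13.7 and 14.1 CPM at Day 0, 12.5, 15.3, 16.6 and 16.7 CPM in the controls, and 16.4, 17.4, 17.3 and 19.4 CPM under compression. Control replicate 1 lay among the Day 0 libraries, while all compression libraries lay above Day 0. Its rise passed under compression (log2 0.39, SE 0.10, adjusted p = 0.00522) and did not pass in controls (log2 0.18, SE 0.10, adjusted p = 0.160) unless control replicate 1 was left out (adjusted p = 0.0434). Ebp and Nsdhl lie on chromosome X, and Xist, the RNA that coats an inactive X, stood at 2414 and 2237 CPM in control replicates 2 and 3 and at 2771 CPM in compression replicate 1, against at most 0.579 CPM elsewhere. The part of this difference in the levels of Ebp and Nsdhl was not tested.

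**Figure D2:**
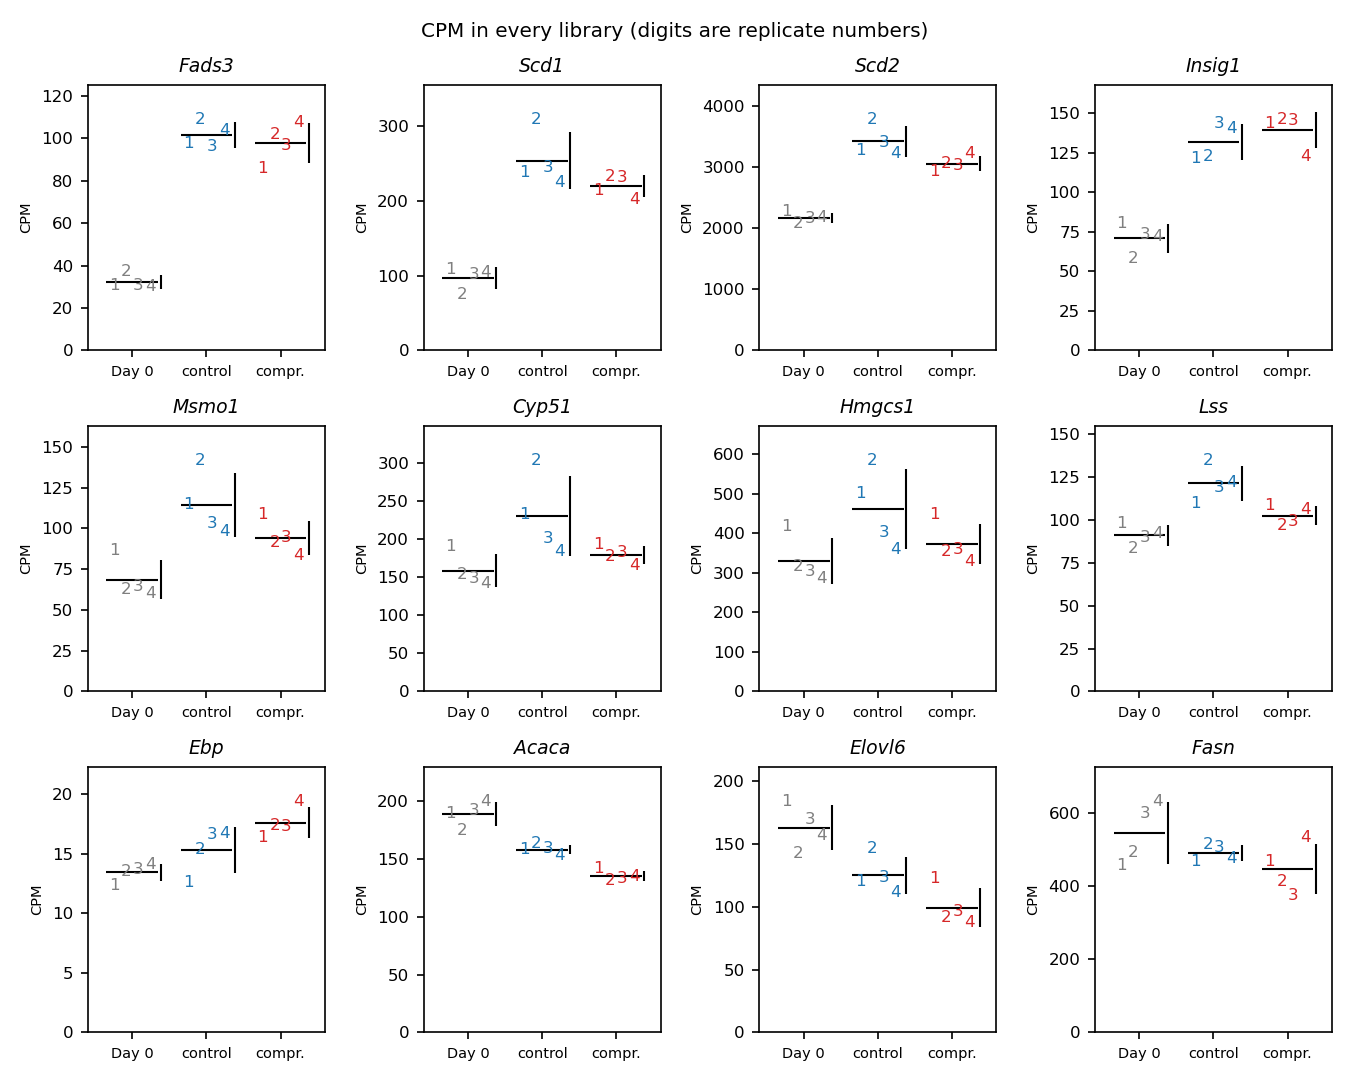
CPM (linear axis from 0) of 12 of the genes in every library, drawn as the replicate number, with a horizontal line at the group mean and a vertical bar of 1 SD on each side (n = 4). Fads3, Scd1, Scd2 and Insig1 have Day 2 libraries wholly above Day 0, and Acaca has 3 groups in falling order with no overlap.

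Among the regulators, Insig1, the protein that holds SREBP factors in the endoplasmic reticulum and is itself a target of theirs, rose most. Its levels were 80.3, 58.4, 73.2 and 72.3 CPM at Day 0, 121, 123, 143 and 140.1 CPM in the controls, and 144, 146, 145 and 123 CPM under compression. All Day 2 libraries lay above all Day 0 libraries, and the Day 2 groups overlapped. The rises were 1.85-fold (log2 0.89, SE 0.10, adjusted p = 1.11e-05) and 1.96-fold (log2 0.97, SE 0.10, adjusted p = 3.90e-06). Srebf1, the factor that mainly drives fatty acid genes, stood at 85.5, 102, 116 and 119 CPM at Day 0, 113, 150.3, 167 and 161 CPM in the controls, and 127, 158, 142 and 199 CPM under compression. Control replicate 1 lay inside the Day 0 range, and compression replicate 4 was the highest library. Its log2 fold changes were 0.48 (SE 0.15, adjusted p = 0.0226) and 0.56 (SE 0.15, adjusted p = 0.00813). The call in controls was lost without Day 0 replicate 1 or 2 or without control replicate 2, 3 or 4 (adjusted p = 0.0850, 0.0532, 0.0549, 0.0798 and 0.0674). Srebf2, the factor that mainly drives sterol genes, averaged 257 ± 8.56 CPM at Day 0, 275 ± 22.9 CPM in the controls and 275 ± 42.0 CPM under compression (SD, n = 4). Neither Day 2 group passed for Srebf2 (log2 0.10 for both, adjusted p = 0.418 and 0.388), and 95% intervals ran from -0.10 to 0.30 in both comparisons. Stard4, a carrier of cholesterol between membranes, stood at 74.8, 61.4, 73.4 and 76.7 CPM at Day 0. It reached 105, 115, 100.2 and 96.5 CPM in the controls and 95.2, 96.0, 96.2 and 90.6 CPM under compression. The 3 groups of Stard4 did not overlap, and the rises of 0.54 and 0.40 passed (SE 0.08 for both, adjusted p = 8.48e-05 and 6.70e-04).

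The fatty acid genes did not all move the same way. Of the enzymes that build and lengthen saturated chains, Acaca and Elovl6 fell and Acly and Fasn did not pass. Of the desaturases, which insert double bonds, all 5 rose in controls and 4 rose under compression, where Fads2 did not pass. Acly cleaves citrate to supply acetyl-CoA, and averaged 498 ± 19.1 CPM at Day 0, 512 ± 44.7 CPM in the controls and 463 ± 10.1 CPM under compression (SD, n = 4; adjusted p = 0.661 and 0.201). Acaca, which makes malonyl-CoA in the committed step of fatty acid synthesis, fell. Its levels were 189, 174, 192 and 199.96 CPM at Day 0, 158, 163, 159 and 153 CPM in the controls, and 141, 131, 133 and 135 CPM under compression. The 3 groups did not overlap, with Day 0 highest and compression lowest. The log2 fold changes against Day 0 were -0.26 in controls (SE 0.05, adjusted p = 0.00154) and -0.48 under compression (SE 0.05, adjusted p = 8.06e-06). Fasn, the synthase that assembles palmitate, stood at 458, 491, 600.1 and 633 CPM at Day 0, 468, 514, 507 and 476 CPM in the controls, and 467, 414, 374 and 534 CPM under compression. The groups overlapped, and the spread was widest at Day 0. Its log2 values of -0.15 (SE 0.12, adjusted p = 0.323) and -0.29 (SE 0.12, adjusted p = 0.0561) did not pass. The compression value passed as lower without Day 0 replicate 1 or 2 or compression replicate 4 (adjusted p = 0.0178, 0.0457 and 0.0116), and in 7 of 24 alternative settings in all, among them DESeq2 (adjusted p = 0.0316) and limma-voom (adjusted p = 5.75e-04). Elovl6 lengthens palmitate to stearate, the substrate of the next step. It stood at 184, 142, 169 and 156 CPM at Day 0, 119.9, 146, 123 and 112 CPM in the controls, and 122, 91.2, 96.2 and 87.7 CPM under compression. Control replicate 2 overlapped Day 0, while every compression library lay below Day 0. The falls were -0.38 (SE 0.11, adjusted p = 0.0158) and -0.72 (SE 0.11, adjusted p = 1.76e-04), which is 0.768 and 0.609 times the Day 0 level.

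Scd1 and Scd2, the stearoyl-CoA desaturases that turn saturated into monounsaturated fatty acids, rose in both groups. Scd1 stood at 108, 75.4, 101 and 104 CPM at Day 0, 238, 309, 244 and 224 CPM in the controls, and 214, 233, 231 and 202 CPM under compression. No Day 2 library overlapped Day 0. The rises were 2.61-fold in controls (log2 1.385, SE 0.12, adjusted p = 1.82e-06) and 2.26-fold under compression (log2 1.18, SE 0.12, adjusted p = 4.23e-06). Scd2 stood at 2269, 2073, 2153 and 2170.4 CPM at Day 0, 3273, 3789, 3403 and 3232 CPM in the controls, and 2935, 3056, 3036 and 3219.7 CPM under compression. The 3 groups of Scd2 did not overlap, with controls highest. Its rises were 1.58-fold (log2 0.66, SE 0.07, adjusted p = 6.84e-06) and 1.41-fold (log2 0.50, SE 0.07, adjusted p = 4.21e-05). Scd1 moved further than its neighbour, so the ratio of Scd2 to Scd1 counts, 20.9 to 27.5 in the Day 0 libraries, was 12.2 to 14.4 in those of controls and 13.1 to 15.9 in those under compression. This is a ratio of counts and not of levels per length. The genes lie 87.6 kb apart on chromosome 19 of GRCm38, Scd2 at 44293674 to 44306864 (plus strand) and Scd1 at 44394455 to 44407879 (minus strand). The close copies Scd3 and Scd4 had 5 to 17 and 11 to 43 counts per library, and how the authors counted reads shared by such copies is not stated in the labels.

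Fads3, a desaturase gene of the cluster that also holds the makers of polyunsaturated fatty acids, changed most of all 31 genes. It stood at 30.7, 37.1, 30.8 and 30.0 CPM at Day 0, 97.5, 109, 96.0 and 104 CPM in the controls, and 85.6, 102, 96.5 and 108 CPM under compression. Every Day 2 library was far above Day 0, and the Day 2 groups overlapped. The rises were 3.17-fold (log2 1.66, SE 0.09, adjusted p = 4.06e-08) and 3.05-fold (log2 1.61, SE 0.09, adjusted p = 3.26e-08), which ranked 10 and 18 by p-value among all 15246 genes. Fads1, the desaturase that makes arachidonic acid, stood at 296, 299, 293 and 284 CPM at Day 0, 333, 383, 358 and 343 CPM in the controls, and 313, 327, 329 and 324 CPM under compression. The 3 groups of Fads1 did not overlap. Its rise of 0.27 in controls passed (SE 0.06, adjusted p = 0.00134), and that of 0.14 under compression passed narrowly (SE 0.06, adjusted p = 0.0432) and held in 6 of 24 alternative settings, with adjusted p-values up to 0.138. Fads2, the desaturase that opens the polyunsaturated route, averaged 135 ± 4.55 CPM at Day 0, 171 ± 17.7 CPM in the controls and 152 ± 9.28 CPM under compression (SD, n = 4). It rose in controls (log2 0.34, SE 0.07, adjusted p = 0.00181), and under compression it had a value of 0.17 (SE 0.07, adjusted p = 0.0594) that passed without control replicate 2 (adjusted p = 0.0423). The 3 genes span 155.3 kb of chromosome 19 in GRCm38. Fads3 lies at 10041569 to 10060110 (plus strand), Fads2 at 10062765 to 10101746 (minus strand) and Fads1 at 10182888 to 10196877 (plus strand).

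**Figure D3:**
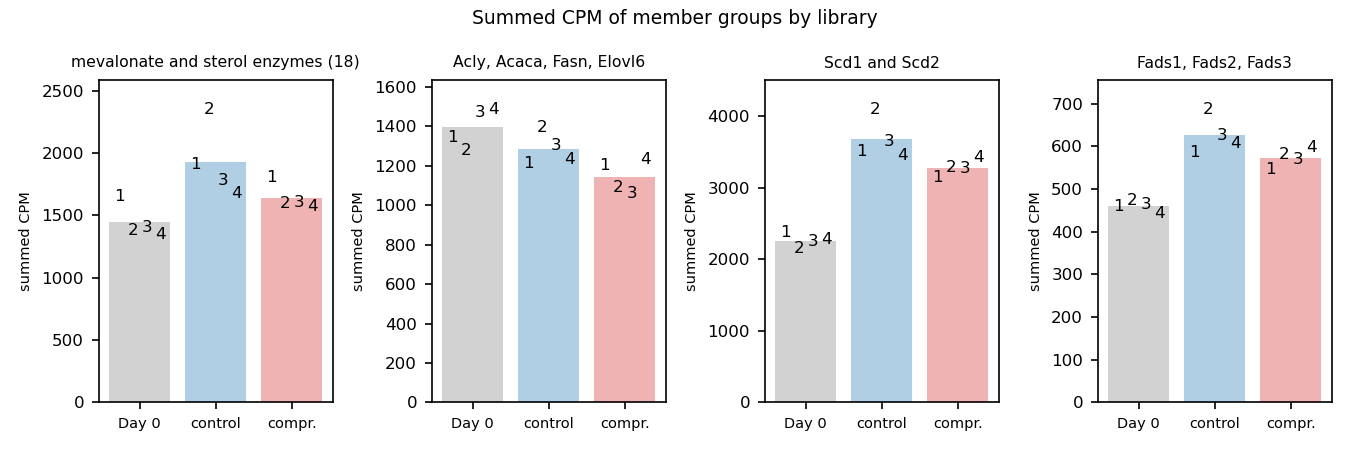
Summed CPM of 4 sets of the genes, with bars from 0 at the mean of the 4 libraries of a group and each library drawn as its replicate number. Mevalonate and sterol enzymes peak in control replicate 2 (2351 CPM), the sum of Acly, Acaca, Fasn and Elovl6 is lowest under compression, and the Scd and Fads sums of every Day 2 library lie above every Day 0 library.

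Sums over steps gave the following levels. The sum of Acly, Acaca, Fasn and Elovl6 was 1279 to 1486 CPM at Day 0, 1213 to 1395 CPM in the controls and 1060.2 to 1231 CPM under compression, so that Day 0 overlapped the controls and lay above compression. The sum of Scd1 and Scd2 was 2148 to 2378 CPM at Day 0, 3457 to 4098 CPM in the controls and 3149 to 3422 CPM under compression, with every Day 2 library above every Day 0 library. For the 18 mevalonate and sterol genes the sums were 1655, 1376, 1406 and 1350.3 CPM at Day 0, 1909.9, 2351, 1777 and 1672 CPM in the controls, and 1800.2, 1592, 1601.5 and 1569 CPM under compression. Day 0 replicate 1, control replicate 2 and compression replicate 1 were the highest libraries of their groups. The sums of Day 0 and controls did not overlap, and those under compression overlapped both. Sums of cell type markers were set beside these by group. The sum of 10 surfactant and alveolar type 2 markers was 354 to 569 CPM at Day 0, 752 to 1240 CPM in the controls and 1153 to 2021 CPM under compression, with Sftpd at 0 in all Day 0 libraries. Etv5 alone gave 240 to 292 CPM at Day 0, and Sftpc 460 to 740 CPM in the controls and 677 to 1230 CPM under compression. Of the 9 tested, 4 were higher in controls than at Day 0, where 22.6% of all genes were. In that comparison 3 had negative log2 fold changes (lowest -1.06). Under compression 7 were higher than at Day 0, where 26.6% of all genes were, and none was negative. Leukocyte markers (16 genes) summed to 266 to 314 CPM at Day 0, 328 to 595 CPM in the controls and 505 to 615 CPM under compression. The 595 CPM was control replicate 4, where Lyz2 gave 141 CPM, against 37.5 to 58.6 CPM in the other controls. In controls 6 of the 16 were higher than at Day 0, where 22.6% of all genes were, and 4 had negative log2 fold changes. Under compression 12 were higher than at Day 0, where 26.6% of all genes were, and 1 was negative. Endothelial markers (11 genes) summed to 390.4 to 635 CPM at Day 0, 75.9 to 130 CPM in the controls and 105 to 124 CPM under compression. In the same order, adipocyte markers (8 genes) summed to 18.3 to 20.9, 20.8 to 34.5 and 23.997 to 32.1 CPM. Of these, Cfd and Lep were at 0 in all 12 libraries and Adipoq, Plin1 and Cidec reached at most 0.0917 CPM, while Lipe (9.54 to 16.3 CPM), Fabp4 (2.20 to 13.03 CPM) and Pparg (1.83 to 7.26 CPM) were present in every library. Pparg rose by 1.16 in controls and 1.37 under compression (adjusted p = 9.14e-04 and 1.75e-04), and Fabp4 by 0.93 and 0.98 (adjusted p = 0.0446 and 0.0288). The part of these cell types in the levels of the lipid genes was not tested.

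Per kilobase of exon, Scd2 was the highest of the 31 genes in every group, at 397 ± 14.8 CPM per kb at Day 0, 627 ± 46.4 in controls and 560.3 ± 21.6 under compression (SD, n = 4). Acly (94.3 ± 3.61, 97.0 ± 8.48 and 87.7 ± 1.90 CPM per kb) and Hmgcs1 (71.9 ± 12.8, 101 ± 21.999 and 81.2 ± 11.2 CPM per kb) came next, and their ranges overlapped in every group. Tm7sf2 was the lowest in every group (2.54 ± 0.104, 3.09 ± 0.330 and 2.67 ± 0.291 CPM per kb). The order changed most among the fatty acid genes. Scd1 went from rank 15 at Day 0 to rank 7 in controls and 8 under compression, and Fads3 from rank 25 to rank 15 in both, while Elovl6 went from rank 10 to 20 and 21. Exons of 4 genes share over 10% of their bases with another gene model, which makes their counts uncertain. The share of bases does not give the size of this uncertainty, because the counting step and strand setting are not stated. Fdft1 shares 18.3% with Ctsb and Hmgcs1 12.1% with an antisense model on opposite strands, and Fdps shares 26.7% and Tm7sf2 12.1% with models on the same strand.

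**Figure D4:**
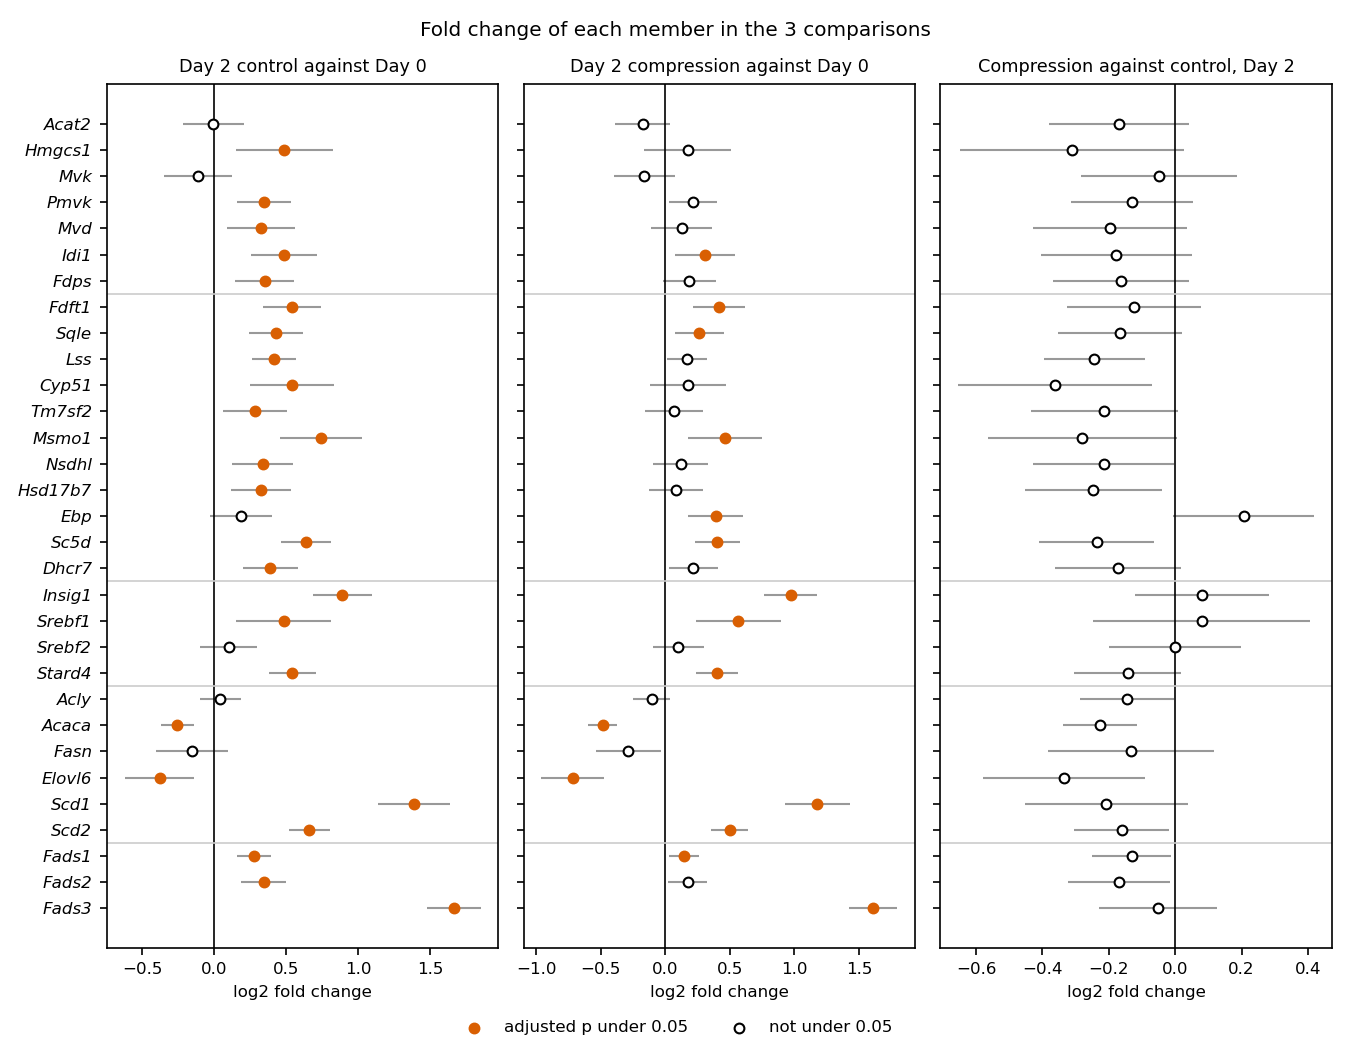
Log2 fold change (points) with its 95% interval (lines) of each of the 31 genes, for controls against Day 0, compression against Day 0 and compression against control, each on its own scale. Filled points passed an adjusted p of 0.05: 23 higher and 2 lower in the left panel, 13 higher and 2 lower in the middle and none on the right, where 27 of 31 points lie below 0.

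Compression against control at Day 2 sets lungs in crosslinked polymer beside lungs in the uncrosslinked solution, where restriction and crosslinking cannot be told apart. No gene of the 31 passed, and neither did any of the 15246 genes tested (0%) by edgeR at an adjusted p of 0.05. The lowest adjusted p among the 31 was that of Acaca (0.252). Point estimates lay mostly below 0: 27 of the 31 log2 fold changes were negative, where 49.0% of all genes were, with a median of -0.17 against 0.00 over all genes. At an unadjusted p under 0.05, 11 of the 31 were lower, where 5.33% of all genes were, and none was higher, where 6.73% of all genes were. The groups did not overlap for 6 genes in the lower direction (Lss, Sc5d, Stard4, Acaca, Scd2 and Fads1), where this held for 2.70% of all genes, and for none in the higher direction, where it held for 3.07%. DESeq2 called 1 of the 31 genes as lower (Acaca, adjusted p = 0.00914), in a fit that called 0.111% of all genes as lower. By limma-voom, when each sample carried a quality weight, 11 of the 31 were called lower, where 5.17% of all genes were.

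The values by step were small. In the mevalonate arm all 7 log2 fold changes were negative, from -0.31 for Hmgcs1 (95% interval -0.65 to 0.03) to -0.05 for Mvk, with Mvd (-0.20), Idi1 (-0.18), Acat2 (-0.17), Fdps (-0.16) and Pmvk (-0.13) between them. Of the 11 sterol genes 10 were negative. Cyp51 had the lowest value of all 31 genes (-0.36, 95% interval -0.65 to -0.07, adjusted p = 0.376), with controls at 230.1 ± 52.9 CPM and compression at 179 ± 11.6 CPM. Lss had the lowest p-value of the sterol genes (-0.24, 95% interval -0.40 to -0.09, adjusted p = 0.310). The intervals of Cyp51, Lss, Hsd17b7 (-0.45 to -0.04), Sc5d (-0.41 to -0.06) and Nsdhl (-0.4272 to -0.0043) lay wholly below 0, although none of these genes passed after adjustment. Msmo1 (-0.28), Hsd17b7 (-0.25), Sc5d (-0.24), Nsdhl (-0.22), Tm7sf2 (-0.21), Dhcr7 (-0.17), Sqle (-0.17) and Fdft1 (-0.12) had adjusted p-values from 0.366 to 0.582. Ebp was the one sterol gene with a positive value (0.21, 95% interval -0.01 to 0.42, adjusted p = 0.424), and its interval included 0. Among the regulators, Insig1 and Srebf1 were at 0.08, Srebf2 at 0.00 and Stard4 at -0.14. Their 95% intervals ran from -0.12 to 0.28 for Insig1, -0.25 to 0.41 for Srebf1, -0.20 to 0.20 for Srebf2 and -0.30 to 0.02 for Stard4. All 6 fatty acid genes and the 3 Fads genes were negative, the saturated-chain enzymes and the desaturases alike. Acaca averaged 158 ± 4.17 CPM in the controls and 135 ± 4.40 CPM under compression (log2 -0.23, 95% interval -0.34 to -0.11), and Elovl6 125 ± 14.8 and 99.3 ± 15.7 CPM (log2 -0.34, -0.58 to -0.09, adjusted p = 0.366). The values of Scd1 (-0.21), Fads2 (-0.17), Scd2 (-0.16), Acly (-0.15), Fasn (-0.13), Fads1 (-0.13) and Fads3 (-0.05) had adjusted p-values from 0.383 to 0.807.

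**Figure D5:**
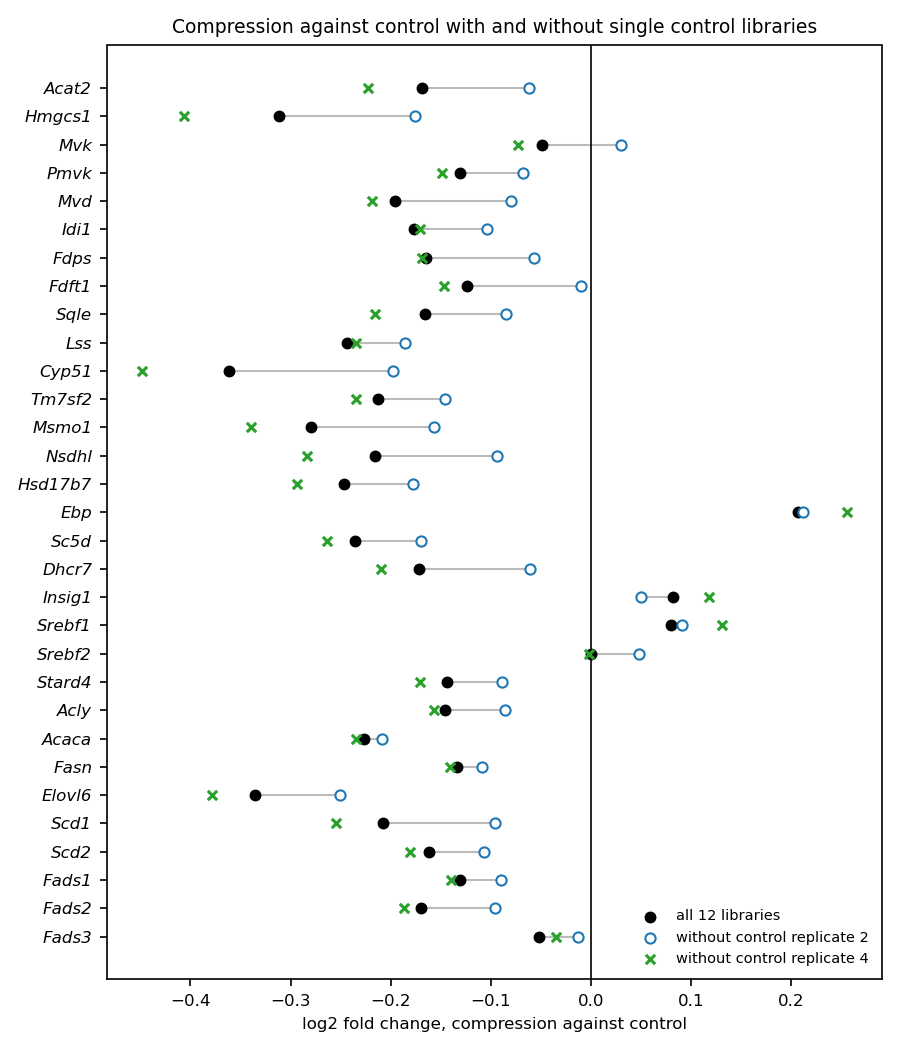
Log2 fold change of compression against control for each of the 31 genes with all 12 libraries (black), without control replicate 2 (open blue circles) and without control replicate 4, the library with liver transcripts (green crosses). Without control replicate 2 most points move toward 0, and without control replicate 4 most sterol genes move further below it.

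These values leaned on control replicate 2. That library was the highest control for 28 of the 31 genes and for 17 of the 18 mevalonate and sterol genes, where it was the highest control for 22% of all genes. Its level was a median of 1.19 times the mean of the other 3 controls over the 31 genes (range 0.909 to 1.47), against 1.002 over all genes. Without it the median log2 fold change of the 31 genes was -0.09, with 26 negative and 4 lower at an unadjusted p under 0.05 (Lss, Sc5d, Acaca and Elovl6), where 3.47% of all genes were. Without control replicate 4 the median was -0.19, with 28 negative and 17 lower at an unadjusted p under 0.05, where 6.02% of all genes were. With compression replicates 2 and 3 summed to 1 library the median was -0.16 and 6 were lower at an unadjusted p under 0.05, where 3.29% of all genes were. Without replicate 2 or replicate 3 the count was also 6, where 2.93% and 3.73% of all genes were lower. Acaca kept most of its value throughout, from -0.25 to -0.21 over the alternatives. Control replicate 2 also had the highest sum of 15 DNA replication genes among the controls (2437 CPM, against 2149.6 to 2308 CPM) and of 7 mesothelial markers (392 CPM, against 254 to 343 CPM). Among the mesothelial markers, Krt7, Aldh1a2, Upk3b and Lrrn4 were the highest of the controls in this library. Wt1 and Upk1b were highest in control replicate 1, and Msln was lowest in control replicate 2 (15.9 CPM). The Xist level of control replicate 2 is given above. The part of these differences in the comparison was not tested.

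Genes around the pathway were counted from lists of their neighbours, to be read against the 22.6% of all genes that were higher and the 17.6% that were lower in controls than at Day 0. In controls against Day 0, 12 of 23 other genes of fatty acid synthesis and activation rose and 2 fell (median log2 0.42). Acss2, which makes acetyl-CoA from acetate, rose in both groups, from 6.61 ± 0.856 CPM at Day 0 to 20.9 ± 3.30 CPM in the controls (log2 1.66, adjusted p = 7.67e-07) and 17.8 ± 1.38 CPM under compression (log2 1.42, adjusted p = 1.78e-06). Others that rose in controls were the ligase gene Acsl5 (0.68), Mid1ip1, whose product acts on acetyl-CoA carboxylase (0.79), and Mlxipl, a sugar-responsive activator of lipogenic genes (1.121). Of 16 fatty acid oxidation genes 8 rose, 1 fell and 7 did not pass (median 0.27), with the acyl-CoA dehydrogenase genes Acadl (0.69), Acadvl (0.52) and Acadm (0.50) among them. Of 19 genes of glycerolipid and surfactant lipid assembly 13 rose and 1 fell (median 0.34), among them Pcyt1a, the rate-limiting enzyme of phosphatidylcholine synthesis (0.58), and Chpt1, which completes it (0.73). Of 19 genes of sterol sensing by LXR, efflux and storage 5 rose and 2 fell (median 0.10), with the lysosomal cholesterol carrier Npc2 (0.60) and the cholesteryl ester hydrolase Nceh1 (0.91). Of 14 genes of SREBP processing 5 rose and 2 fell (median 0.01), with Insig2, the relative of Insig1, at 0.40 and the ubiquitin ligase Rnf145 at -0.30. Of 15 accessory genes of sterol synthesis 4 rose (median 0.13), with the mitochondrial thiolase Acat1 at 0.46.

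Under compression against Day 0 the counts of these lists stand against 26.6% of all genes higher and 22.5% lower. Of the 23 other fatty acid genes 12 rose and 2 fell (median log2 0.34), of the 16 oxidation genes 8 rose (0.33), and of the 19 glycerolipid genes 13 rose and 2 fell (0.31), with Pcyt1a at 0.62 and the lipase gene Pnpla2 at 0.68. In the LXR, efflux and storage list 5 rose (0.19), in the SREBP processing list 4 rose and 3 fell (-0.03), and in the accessory list 5 rose (0.14). In compression against control none of these genes passed, and the list medians were 0.12 for LXR, efflux and storage, 0.04 for oxidation, 0.03 for glycerolipids and 0.00 for the other 3. The 31 genes had a median of -0.17 in that comparison. Other lists went both ways there. Medians were -0.11 for 15 DNA replication genes (14 negative) and -0.20 for 12 genes of the unfolded protein response (12 negative). Marker medians were positive for alveolar type 2 cells (1.25), leukocytes (0.44), adipocytes (0.13), endothelium (0.12), lung epithelium (0.10) and lung mesenchyme (0.09). They were negative for mesothelium (-0.31) and for liver (-4.67), whose transcripts were found in control replicate 4. None of the genes in these lists passed.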

How the data were processed

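RNA was measured by sequencing in 12 libraries of whole fetal lung explants, 4 in each of 3 groups taken from the sample labels. The deposited values are raw read counts per gene symbol that the authors made. The submitters' processing notes name fastp, STAR and the build mm10, and give no tool version, annotation, counting step or strand setting. The count of each gene was tested with edgeR 4.0.16 (R 4.3.3): filterByExpr (minimum count 10, minimum total 15), TMM factors and a robust quasi-likelihood fit over all 12 libraries with 3 contrasts, Benjamini-Hochberg adjustment over 15246 genes and a threshold of 0.05. Intervals are at 95%. Total counts of 13979871 to 33249761 per library set the precision of each CPM. The 31 genes and the other lists were chosen with earlier results of these data known. All 31 are named in each comparison, and of each further list the 4 called genes with the lowest p were eligible to be named. A total of 24 alternatives was run, among them DESeq2 1.42.0, limma 3.58.1, other scalings, no filter, a replicate block and each library left out. Of these, 3 were chosen after seeing the data. Promoter windows are from RefSeq (GRCm38.p6), and exon lengths and gene positions from the GENCODE annotation of GRCm38.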

Additional observations from a re-analysis of the deposited data

Results flagged for a closer look

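In 6 of 93 groups of 4 libraries, 1 library of a gene stood far from the other 3, with a gap to its nearest neighbour above the 95% critical value of Dixon's test. By chance about 5% of groups would do so. Among sterol genes, Fdft1 was 137 CPM in control replicate 2, with the next control at 105 CPM. Msmo1 was 86.2 CPM in Day 0 replicate 1, with the next at 64.6 CPM. The thiolase gene Acat2 was 155 CPM in compression replicate 1, with the next at 138 CPM. Compression replicate 4 was apart for a pair of regulators: Insig1 was lowest there at 123 CPM (the next was 144 CPM), and Srebf2 was highest at 338 CPM (the next was 260.3 CPM). Fads3 was 37.1 CPM in Day 0 replicate 2, with the next at 30.8 CPM, and both are far below every Day 2 library.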

How the results depend on the processing

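Over the 24 alternatives, 16 of the 23 genes higher in controls than at Day 0 and 10 of the 13 higher under compression than at Day 0 were called each time, as were Acaca and Elovl6 as lower in both. Leaving out 1 library gave 18 to 23 and 10 to 14 higher calls, and no call between the Day 2 groups. The number of lipid genes lower under compression than in controls was 1 with DESeq2, where 0.111% of all genes were. With limma-voom it was 11, where 5.17% of all genes were. The number lower under compression than at Day 0 was 6 with limma-voom, where 28% of all genes were. The main edgeR fit called 2 as lower than at Day 0, where 22.5% of all genes were. The cause of these differences between methods was not tested. Replicate numbers were not taken to pair the libraries: deviations of same-numbered libraries correlated at -0.18 to 0.17 for compression and control (2 of 8 best with their own number), -0.14 to 0.11 for compression and Day 0 (2 of 8) and 0.05 to 0.11 for control and Day 0 (5 of 8). With the replicate block 22 genes were higher in controls than at Day 0, where 23.6% of all genes were. Under compression 14 were higher, where 27.5% of all genes were, and none differed between Day 2 groups. Signs turned only for genes that were not called. In compression against control these were Mvk (0.011 without control replicates 2 and 4, 0.022 without Day 0 replicate 1 and control replicate 2, -0.13 to 0.030 with 1 library left out), Srebf1 (-0.024 with limma-voom, -0.057 to 0.17 with 1 left out), Srebf2 (-0.10 with limma-voom, -0.0038 with the replicate block, -0.11 to 0.048 with 1 left out) and Fads3 (0.016 without control replicates 2 and 4, -0.10 to 0.0037 with 1 left out). In controls against Day 0 they were Acat2 (0.014 with upper-quartile scaling, 0.037 without control replicate 4 and with compression replicates 2 and 3 summed, -0.12 to 0.041 with 1 left out) and Acly (-0.018 without control replicates 2 and 4, -0.023 without Day 0 replicate 1 and control replicate 2, -0.030 to 0.069 with 1 left out). In compression against Day 0 they were Tm7sf2 (-0.047 with limma-voom, -0.011 to 0.098 with 1 left out), Hsd17b7 (-0.049 with limma-voom, -0.014 to 0.11 with 1 left out) and Srebf2 (-0.033 to 0.13 with 1 left out). The combined omissions were chosen after seeing the data. Groups of 4 and intervals of about 0.2 to 0.7 in width limit what differences between the Day 2 groups could be detected.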
